A study of Mus musculus with 6 samples.

Results

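H3K9me3 islands shorter than 2000 bp numbered 760 of the 23268 islands that the SICER caller had found in C2C12 myoblasts. They made up 3.27% of the islands and held 1.13 Mb, which was 0.635% of all island bases. They were chosen by the length of the island as called from the H3K9me3 library. Because of this choice, all H3K9me3 values that set them beside longer islands are given as a description with no test. A Setdb1 site lay over 58 of the 760, and the results turn on these 58 and on the 702 others.

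H3K9me3, histone H3 trimethylated at lysine 9, is a mark of silent chromatin, often laid down over broad stretches of repeats and gene clusters. Setdb1 is a methyltransferase that adds this mark, and it is known for silencing retroviral elements, imprinted regions and single genes, where zinc finger proteins and the corepressor Kap1 can bring it to DNA.

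The study sequenced chromatin from C2C12 cells, an established mouse line of muscle precursors, and the labels name 6 libraries with 1 library in each group. These are H3K9me3, Setdb1, Setdb1 in cells given DMSO, Setdb1 in cells given Wnt3a at 50 ng/ml for 24 h, and an input for each of the antibodies. The cells were proliferating, and no group carried a genetic change by its labels. The Setdb1 list does not say which Setdb1 library it came from, though a figure legend of the study names the more enriched experiment. Wnt3a-treated cells were not compared with controls. All values come from called regions of single libraries, so intervals and p-values describe regions and counting error and say nothing of the spread between cultures. The depth of the libraries is not given in the sources used here.

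Islands are built from windows of 200 bp, joined over gaps of up to 1000 bp, so lengths moved in steps of 200 bp. Among the short islands 2 were 200 bp long, 10 were 400 bp, 11 were 600 bp and 27 were 800 bp. Another 43 were 1000 bp, 88 were 1200 bp, 143 were 1400 bp, 187 were 1600 bp and 249 were 1800 bp. The class was thus mostly made of islands close to its limit, with a median of 1600 bp. Just inside the limit, 17 of the 249 islands of 1800 bp had a Setdb1 site (6.83%), with a median H3K9me3 fold enrichment of 6.87. Just outside it, 15 of the 273 islands of 2000 bp had a site (5.49%), with a median of 7.35.

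The DNA under the strongest Setdb1 sites of the class is shown first, since the results turn on where the enzyme and its mark met in these islands. Each window holds 201 bases around the Setdb1 summit on the plus strand of mm9, for the 6 highest fold enrichments, and is named for the gene of the nearest start. Capitals mark matches, on either strand, to motifs searched in all windows: TGCCGC, the element bound by the imprinting factor Zfp57, CAGCTG, an E-box that MyoD prefers, and CACACACA, a simple repeat. The windows lie at chr13:94978811-94979011, chr12:71098649-71098849, chr2:164693262-164693462, chr9:45637347-45637547, chr1:63246645-63246845 and chr11:3022185-3022385 in the order printed.
Lhfpl2: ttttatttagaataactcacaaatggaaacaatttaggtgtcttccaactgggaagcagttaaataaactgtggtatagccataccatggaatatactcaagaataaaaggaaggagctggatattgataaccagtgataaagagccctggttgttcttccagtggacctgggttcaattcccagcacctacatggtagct
Sav1: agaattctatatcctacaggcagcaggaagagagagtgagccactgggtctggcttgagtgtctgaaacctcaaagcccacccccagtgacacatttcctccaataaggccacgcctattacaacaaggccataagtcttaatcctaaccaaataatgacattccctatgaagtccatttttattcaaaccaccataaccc
Pltp: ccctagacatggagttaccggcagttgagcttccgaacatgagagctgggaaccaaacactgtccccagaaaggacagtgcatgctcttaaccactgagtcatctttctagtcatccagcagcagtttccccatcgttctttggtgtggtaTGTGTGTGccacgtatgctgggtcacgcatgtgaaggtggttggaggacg
Cep164: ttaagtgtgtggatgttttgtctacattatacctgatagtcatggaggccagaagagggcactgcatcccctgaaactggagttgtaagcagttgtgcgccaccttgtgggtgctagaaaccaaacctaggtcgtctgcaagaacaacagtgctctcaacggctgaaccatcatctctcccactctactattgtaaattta
Gm11607: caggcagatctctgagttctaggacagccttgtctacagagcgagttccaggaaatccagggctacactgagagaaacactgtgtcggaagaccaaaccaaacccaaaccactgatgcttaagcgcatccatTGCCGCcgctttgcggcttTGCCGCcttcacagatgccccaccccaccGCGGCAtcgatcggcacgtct
Pisd-ps1: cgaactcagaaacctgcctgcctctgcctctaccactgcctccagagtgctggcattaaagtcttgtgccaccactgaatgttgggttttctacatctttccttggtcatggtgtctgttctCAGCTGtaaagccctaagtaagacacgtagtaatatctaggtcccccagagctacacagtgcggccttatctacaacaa

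The windows had little in common by composition. Their GC content ran from 39.3% at Lhfpl2 to 56.2% at Gm11607, and the number of CpG from 0 to 12 in the same windows. Gm11607 alone among the 58 Setdb1 windows held TGCCGC, with 3 matches. That share, 1 of 58 or 1.72% (95% exact interval 0.0436 to 9.24), stood beside 4.87% of the 1191 Setdb1 windows of the whole list and 2.63% of the H3K9me3 windows of longer islands. CAGCTG was in 9 of the 58 (15.5%, interval 7.35 to 27.4), against 10.7% of all Setdb1 windows, and CACACACA was in 3 of the 58 (5.17%), against 5.63%. GGCGGGAA, an E2f element, and TGACGTCA, the cyclic AMP response element, were in 0 of the 58, where up to 6.16% stays possible at this number. They were in 1.18% and 0.168% of all Setdb1 windows, so 58 windows are too few to show a difference.

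Setdb1 lay over short islands more often than over longer ones. A site overlapped 7.63% of short islands (58 of 760, 95% exact interval 5.85 to 9.75), 2.79% of islands of 2000 bp or more (628 of 22508, interval 2.58 to 3.01), and 2.95% of all islands. The odds ratio of short against longer islands was 2.88 (Fisher's exact test on the islands, two-sided, p = 4.18e-11). Against the neighbouring class of 2000 to below 4000 bp, where 4.01% had a site, the odds ratio was 1.98 (Fisher's exact p = 2.97e-05). Per base, short islands held 51.4 sites per Mb, islands of 2000 to below 4000 bp 13.3 and all longer islands 3.70. The ratio was 13.9 against all longer islands and 3.86 against the neighbouring class. It divides by the length that chose the islands, so it is a description, and equal numbers of sites per island would also give a ratio above 1. Of the 1191 Setdb1 sites 58 fell on short islands (4.87%), 654 on longer islands and 479 on no island.

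**Figure D1:**
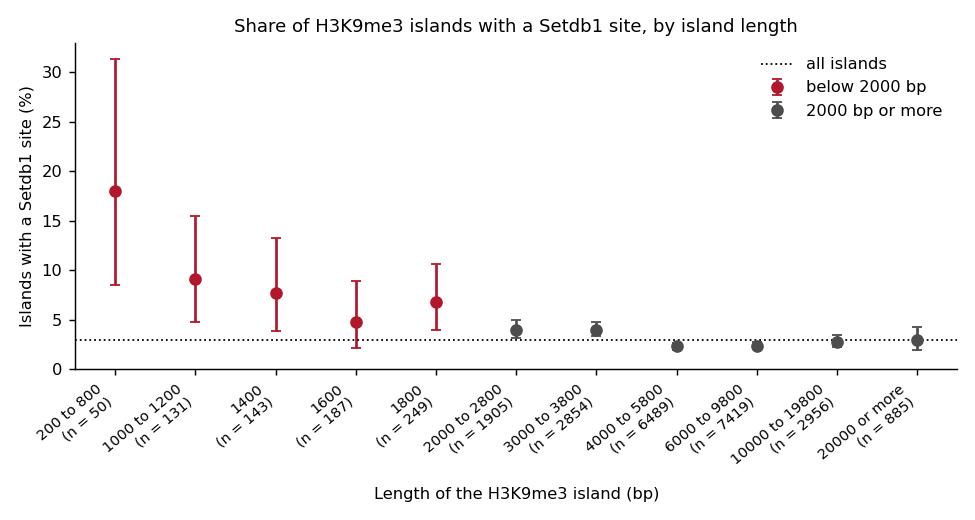
Share of H3K9me3 islands with a Setdb1 site (percent, y axis) in 11 classes of island length (bp, x axis), with 95% exact binomial intervals and the number of islands under each class; the dotted line is the share of all islands, 2.95%. The 50 islands of 200 to 800 bp stood highest at 18%, the other short classes lay between 4.81% and 9.16%, and the classes of 4000 bp or more lay between 2.33% and 2.94%.

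Within the class the share ran from 18% in the islands of 200 to 800 bp (9 of 50, interval 8.58 to 31.4) to 4.81% at 1600 bp (9 of 187, interval 2.22 to 8.94). Islands of 1000 to 1200 bp were at 9.16% and those of 1400 bp at 7.69%. These intervals overlap, and no test was run between the length classes, which the rule itself cuts.

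The difference between short and longer islands varied with the class of H3K9me3 enrichment, and no test compared the odds ratios across classes. MACS, the other caller, gives each H3K9me3 peak a fold enrichment over input and a number of tags, the whole reads in the peak. Each island was given the highest of each among its peaks, and that peak need not lie under the Setdb1 site. A longer island has room for more peaks to take the highest from. The same class thus need not mean the same enrichment in short and longer islands. Islands without a peak were left out, so the classes held 751 of 760 short and 18784 of 22508 longer islands. In the lowest of 4 classes of fold enrichment, up to 6.26, a Setdb1 site lay over 8.38% of short islands (16 of 191) and 1.03% of longer ones (94 of 9113), with an odds ratio of 8.77. Fisher's exact test gave p = 6.84e-10, and 1.09e-08 after Benjamini-Hochberg adjustment over 16 comparisons within classes. Between 6.26 and 7.56 the shares were 6.39% and 2.18% (odds ratio 3.06, adjusted p = 0.00301 by the exact test). Between 7.56 and 8.93 they were 6.74% and 4.38% (odds ratio 1.58, adjusted p = 0.221 by the exact test), which misses the threshold of 0.05. Above 8.93 the order was turned, with 9.20% of short and 15.1% of longer islands (odds ratio 0.572, exact p = 0.0493, adjusted p = 0.127). The share of longer islands thus climbed with the H3K9me3 fold, while that of short islands stayed between 6.39% and 9.20%.

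Graded by tags, the share of short islands with a site was higher in each class than in the one below it, and the odds ratio had no steady order. A site lay over 3.66% of short islands with up to 35 tags and 0.826% of longer ones (odds ratio 4.57, adjusted p = 0.00548 by the exact test). From 35 to 44 tags the shares were 4.02% and 2.65% (odds ratio 1.54, adjusted p = 0.340 by the exact test). From 44 to 53 tags they were 7.95% and 3.73% (odds ratio 2.23, adjusted p = 0.0496 by the exact test), which passes. In the highest class, above 53 tags, the shares were 15.1% and 12.9% (odds ratio 1.21, adjusted p = 0.454 by the exact test). Against islands of 2000 to below 4000 bp, the class of lowest fold alone passed the threshold, with 8.38% against 2.44% (odds ratio 3.66, adjusted p = 7.04e-04 by the exact test), and the odds ratios of the other 3 fold classes were 1.91, 1.25 and 0.936.

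**Figure D2:**
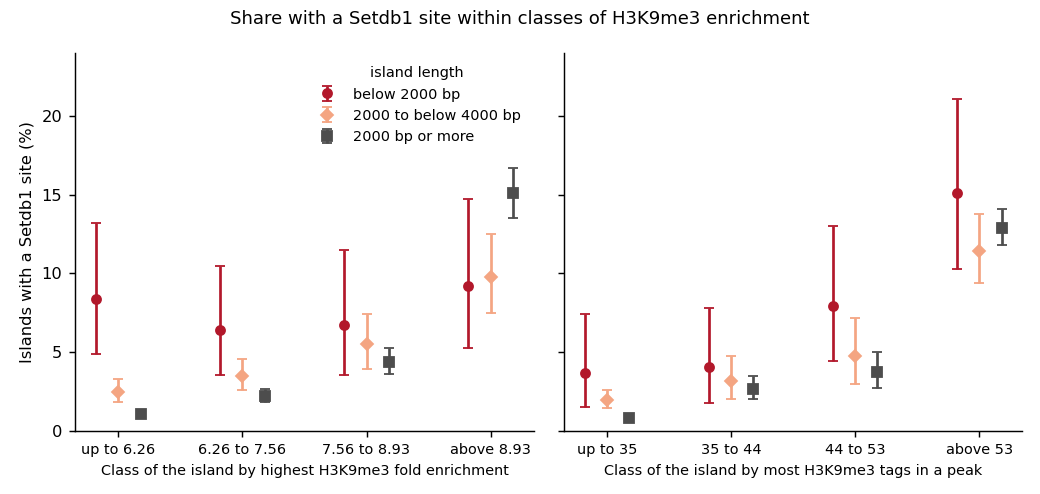
Share of islands with a Setdb1 site (percent, y axis) in 4 classes of highest H3K9me3 fold enrichment (left) and of most H3K9me3 tags in a peak (right), for short islands, islands of 2000 to below 4000 bp and all islands of 2000 bp or more; bars are 95% exact binomial intervals. In the lowest fold class short islands stood at 8.38% and longer ones at 1.03%, and in the highest class at 9.20% and 15.1%.

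Short islands were nearly always seen by both callers, which read the same H3K9me3 library, so this is a description. An H3K9me3 MACS peak overlapped 751 of 760 (98.8%, interval 97.8 to 99.5), beside 84.0% of all islands and 83.5% of longer ones. The median highest fold enrichment was 7.56 in short and 6.44 in longer islands, and the median of most tags was 44 and 27. Both medians were thus higher in the short islands. More than 1 MACS peak lay in 191 of them (25.1%). They also stood further apart, with a median of 34.3 kb to the next island against 13 kb for longer islands.

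The 58 sites themselves were of ordinary strength for the Setdb1 list. Their fold enrichment ran from 4.32 to 16.9 with a median of 7.08, beside a median of 7.64 over longer islands and 6.71 over no island, and tags ran from 17 to 74 with a median of 33. Their summits lay inside the island in 56 of 58, and 32 sites lay wholly inside it. The Setdb1 summit was a median of 141 bp from the H3K9me3 summit of the peak with highest fold (quartiles 55 and 317 bp, 57 islands). It was within 100 bp in 24 of the 57, within 250 bp in 38 and over 500 bp away in 5. Across the 57 islands, Setdb1 fold enrichment and H3K9me3 fold enrichment had a Spearman correlation of 0.416 and a Pearson correlation of 0.429 on the log2 scale. This is a description over regions that share a pair of libraries and their inputs. For tags, which are not set against input, the Spearman correlation was 0.293.

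**Figure D3:**
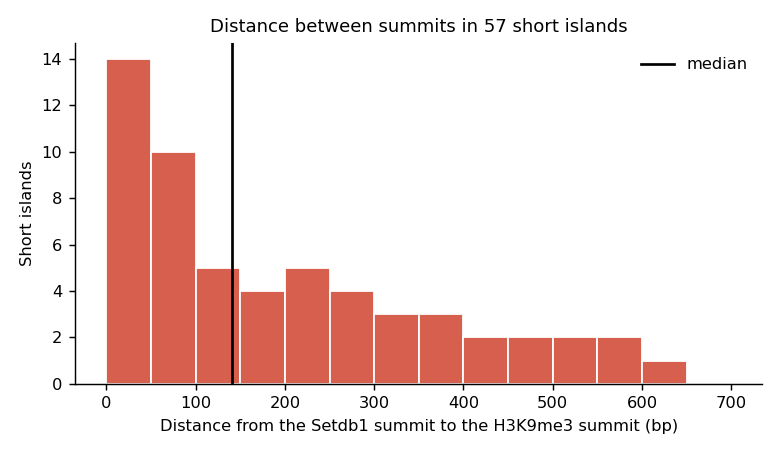
Number of short islands (y axis) by the distance in bp between the Setdb1 summit and the H3K9me3 summit (x axis, bins of 50 bp) for the 57 short islands with both; the line is the median, 141 bp. Of these, 24 lay within 100 bp, and the largest distance was 638 bp. The overlap of site and short island keeps the distances short.

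The strongest site of the class lay in an intron of Scamp1, which encodes a carrier protein of the secretory pathway, with the nearest start 34.1 kb away at Lhfpl2. Over its island of 1400 bp (chr13:94978001-94979400) Setdb1 had 59 tags and 16.86-fold enrichment, and H3K9me3 had 103 tags and 10.67-fold. Next came an intergenic island 9.61 kb from Sav1, a scaffold of the Hippo kinase pathway (chr12:71097601-71098800). There Setdb1 reached 13.75-fold with 58 tags and H3K9me3 10.31-fold with 79 tags, though the summits were 528 bp apart and 53.9% of the site lay in the island. At both islands the H3K9me3 fold was above 8.98, the upper quartile of the islands with a site.

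Cep164, a protein of the centriole needed for cilia, had an island of 1400 bp 0.427 kb from its nearest start, with 12.75-fold Setdb1 enrichment (46 tags) and 9.13-fold H3K9me3 (77 tags). The next island was 288 kb away from it. The island 9.59 kb from Pltp, which transfers phospholipids between lipoproteins, also reached 12.75-fold for Setdb1 (43 tags), with 10.99-fold H3K9me3 (60 tags). Here the summits were 1 bp apart, the smallest distance among the 57.

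Gm11607, an uncharacterised transcript, starts under its island of 1200 bp (chr1:63246401-63247600), which lies inside Gpr1. Gpr1 encodes a chemerin receptor and belongs to the imprinted Gpr1-Zdbf2 domain. Setdb1 had 65 tags at 11.41-fold, while H3K9me3 had 72 tags at 5.89-fold. It was the single CpG-rich island among the 58, CpG-rich meaning over 50% GC and a ratio of observed to expected CpG above 0.6 in 500 bp. Its window also held the 3 TGCCGC matches shown above. The Pisd-ps1 island, 3.51 kb from that pseudogene, was the shortest with a site at 200 bp and the single island of the 58 without an H3K9me3 MACS peak, with 30 Setdb1 tags at 11.23-fold.

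Several of the following islands lay inside genes. In an intron of Gbf1, an exchange factor for Arf proteins at the Golgi, Setdb1 was at 10.28-fold (24 tags) and H3K9me3 at 6.41-fold (36 tags). In Copb1, a subunit of the COPI vesicle coat, the values were 9.39-fold (28 tags) and 9.62-fold (87 tags), 1.79 kb from a start. Sik3, a salt-inducible kinase, had 8.78-fold (39 tags) and 7.91-fold (64 tags) in an intron 3.32 kb from a start.

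Dnm2, the dynamin that cuts vesicles from membranes, had its island of 1800 bp 0.063 kb from a start, with 8.72-fold Setdb1 (32 tags) and 10.28-fold H3K9me3 (69 tags). Anxa6, a calcium-dependent membrane-binding annexin, held an intronic island with 8.05-fold Setdb1 (21 tags) and 8.52-fold H3K9me3 (79 tags). Dlgap2, a scaffold of the synapse, held a pair of short islands with a site. In the stronger, Setdb1 had 74 tags at 8.06-fold and H3K9me3 46 tags at 3.98-fold, the lowest H3K9me3 fold of the 57. In the other, Setdb1 had 26 tags at 7.02-fold and H3K9me3 38 tags at 6.87-fold.

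Outside genes, the island 9.04 kb from Rspo2, a secreted enhancer of Wnt signalling, had 8.06-fold Setdb1 (52 tags) and 8.73-fold H3K9me3 (29 tags). Near Cxcr4, a chemokine receptor, the start was 10.1 kb away and Setdb1 had 17 tags at 8.05-fold, the fewest tags of the 58. Fscn1, which bundles actin, lay 19 kb from an island with 7.65-fold Setdb1 (30 tags) and 8.93-fold H3K9me3 (55 tags). Amd1, an enzyme of polyamine synthesis, lay 3.81 kb from an island of 1000 bp with 7.38-fold (35 tags) and 8.43-fold (56 tags). The rest of the 30 strongest, among them islands named for Tmem191c, Dcaf4, Zfp1, Plek2, Fam180a, Mphosph9, Dytn and Lsm6, had Setdb1 between 7.08-fold and 10.41-fold. In 24 of the 57 islands with a peak the Setdb1 fold was above the H3K9me3 fold.

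**Figure D4:**
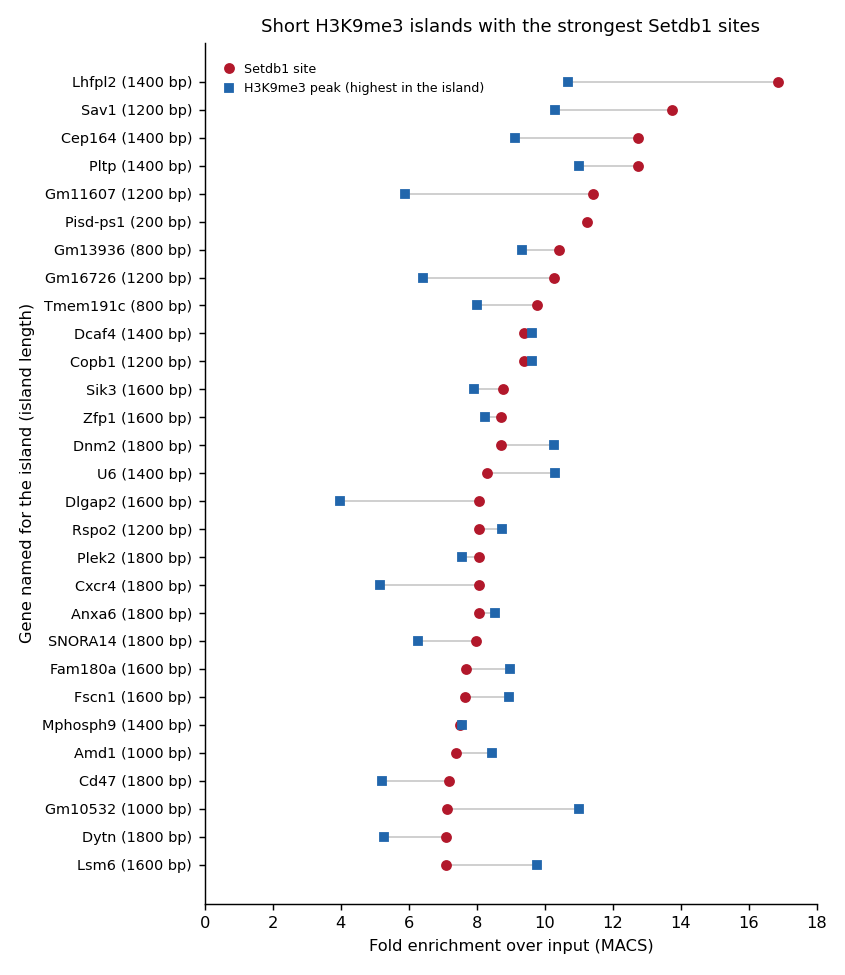
Fold enrichment over input (x axis) of the Setdb1 site (circles) and of the highest H3K9me3 peak (squares) in 29 of the 30 short islands with the strongest Setdb1 sites, from Lhfpl2 at 16.86 down to Lsm6 at 7.08; the y axis gives the gene named for each island and its length in bp, and grey lines join the values of 1 island. Dlgap2 had the lowest H3K9me3 value, 3.98, and Pisd-ps1 had no H3K9me3 peak.

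Several genes that the study names among its targets had a short island with a site within 10 kb, Copb1 above among them. Of all gene names, 37 of 33867 (0.109%) had one. The study picked its targets by Setdb1 and H3K9me3 within 10 kb of a start, so a site near them was given by that choice. Ankrd1, Atxn10, Ptprs, Hspa2 and Zfp110, also named there, had no short island within 10 kb. Srp14, a subunit of the signal recognition particle, lay 8.15 kb from an island of 800 bp with 6.83-fold Setdb1 (27 tags) and 7.30-fold H3K9me3 (49 tags). Fstl3, a secreted inhibitor of activin, lay 1.42 kb from an island of 1200 bp with 6.04-fold (25 tags) and 6.67-fold (47 tags). Prkab2, a regulatory subunit of the kinase AMPK, lay 2.72 kb from an island of 1600 bp in an exon of Fmo5, with 5.83-fold (27 tags) and 7.37-fold (45 tags). Cnn2, a calponin that binds actin, held an intronic island of 1800 bp 2.23 kb from a start, with 6.04-fold (31 tags) and 8.63-fold (61 tags), and was added after its values were seen. Orai2, also named by the study, is described with the starts.

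Starts were reached by few short islands. A start lay within 1 kb of 64 of 760 (8.42%, interval 6.55 to 10.6), beside 12.5% of all islands, and 28 (3.68%) covered a start, beside 10.4% of longer islands. A longer island has more room to reach a start, and length chose the class, so these shares are a description of length as well. A start was covered by 0 of 50 islands of 200 to 800 bp, by 5.22% of those of 1800 bp and by 7.82% of those of 2000 to below 4000 bp. With a site the share within 1 kb was 13.8% (8 of 58, interval 6.15 to 25.4) and without it 7.98% (56 of 702, interval 6.08 to 10.2). The odds ratio was 1.85 and did not pass (Fisher's exact p = 0.137, adjusted over 4 tests 0.274). Besides Gm11607, the islands with a site that covered a start were those of Orai2, a calcium channel subunit, with 6.71-fold Setdb1, Prdm9, a methyltransferase of meiosis, with 5.18-fold, and Zc3h13, a member of the complex that methylates adenosine in RNA, with 4.51-fold. These 3 were named after their values were seen.

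By place, 34 short islands were centred on an exon (4.47%), 297 on an intron (39.1%) and 429 between genes (56.4%). The split hardly moved with Setdb1, as 39.7% of islands with a site and 39.0% of those without lay in introns. CpG-rich DNA was at 2.50% of short islands (19 of 760, interval 1.51 to 3.88) and 1.57% of all islands. With a site it was 1 of 58 and without it 18 of 702, an odds ratio of 0.667 (Fisher's exact p = 1.00, adjusted 1.00). Median GC content was 44.3% with a site and 43.8% without.

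H3K9me3 in short islands with and without Setdb1 had the same median fold enrichment, 7.56. Quartiles were 6.18 and 8.98 with a site (n = 57) and 6.26 and 8.93 without (n = 694). Above the common median lay 27 of 57 and 314 of 694 (exact median test, two-sided, p = 0.783, adjusted 1.00). With sites of 8-fold or more alone this call changed, as 15 of 20 islands with such a site and 326 of 731 others lay above the median (log2 difference 0.22, exact p = 0.0105). The highest value was 10.99 with a site and 25.43 without, but a maximum tends to be higher in the larger group. Tags, by contrast, were higher where Setdb1 was, with medians of 51 and 44 and a log2 difference of medians of 0.21. Above the common median of 44 tags lay 42 of 57 islands with a site and 319 of 694 without (exact median test, p = 5.25e-05, adjusted 2.10e-04). The ranges overlapped almost wholly, from 23 to 103 tags with a site and from 16 to 519 without. Islands with a site were a little shorter, with a median of 1400 bp against 1600 bp, and 15.5% of them held more than 1 MACS peak, against 25.9%. The part of length and of the number of peaks in the difference in tags was not tested.

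**Figure D5:**
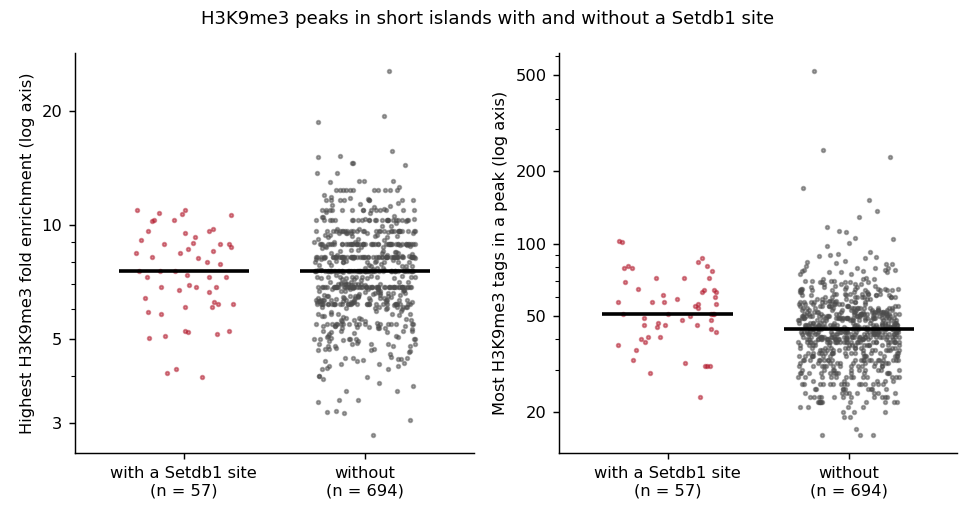
Highest H3K9me3 fold enrichment (left, log axis) and most H3K9me3 tags in a peak (right, log axis) of each short island with a peak, with a Setdb1 site (n = 57) and without (n = 694); black lines are medians, and the sideways spread of points has no meaning. Medians of fold enrichment were 7.56 in both groups, and medians of tags were 51 and 44.

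The highest H3K9me3 fold enrichments of short islands were in islands without a Setdb1 site, the group that held 702 of the 760. Their 3 strongest summits are printed to show the DNA that carries them, 201 bases each on the plus strand of mm9, at chr4:3092295-3092495, chr4:61232607-61232807 and chr13:66163785-66163985. None held a motif named above, so no capitals appear.
Vmn1r2: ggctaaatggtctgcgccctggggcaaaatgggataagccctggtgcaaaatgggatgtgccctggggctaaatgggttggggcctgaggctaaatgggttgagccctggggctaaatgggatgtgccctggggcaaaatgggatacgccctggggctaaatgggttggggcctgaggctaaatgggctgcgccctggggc
Mup17: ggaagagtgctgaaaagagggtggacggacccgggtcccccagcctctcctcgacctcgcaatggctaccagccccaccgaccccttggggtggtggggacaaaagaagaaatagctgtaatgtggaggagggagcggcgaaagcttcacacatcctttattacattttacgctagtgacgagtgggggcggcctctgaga
Gm10324: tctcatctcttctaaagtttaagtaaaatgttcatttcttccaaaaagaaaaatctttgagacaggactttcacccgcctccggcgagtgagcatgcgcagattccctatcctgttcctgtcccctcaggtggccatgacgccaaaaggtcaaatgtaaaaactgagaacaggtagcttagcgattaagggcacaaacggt

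The window named for Vmn1r2, a vomeronasal receptor 6.58 kb away, was a tandem repeat. AAATGGG, searched on both strands after the window was seen, occurred 8 times in it, 22 bases from copy to copy. It was in 28 of the 751 H3K9me3 windows of short islands (3.73%), with 3 copies or more in this window alone. H3K9me3 there had 43 tags at 25.43-fold. The island named for Mup17, a major urinary protein gene 23.8 kb away, was 400 bp long with 70 tags at 19.45-fold, and that of Gm10324 had 47 tags at 18.71-fold. The next 7 islands, named for Gm7281, Fcgr3, Gm8332, Gm8214, Aatf, 4933406J10Rik and Acadl, lay between 13.74-fold and 15.70-fold. Among them Fcgr3, a receptor for immunoglobulin G, had 26 tags at 15.25-fold 0.266 kb from a start, and Acadl, a dehydrogenase of fatty acid oxidation, had 72 tags at 13.74-fold 0.705 kb from a start.

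Some short islands were copies of each other. Of the 760, 122 (16.1%) aligned with another short island over at least 200 bp at 80% identity or more, in 31 groups of which the largest held 26, 16 and 8 islands. Among islands with a site 4 of 58 (6.90%) did so, and among those without 118 of 702 (16.8%). The group of 8 held 2 islands with a site, while the groups of 26 and 16 had no site. Islands of a group share sequence and are not independent regions, and only uniquely aligned reads were kept, so the most alike copies can be missing.

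Genes of the lists that could matter in these cells had few short islands nearby, as did genes as a whole. Of 33867 gene names, 377 (1.11%) had a start within 10 kb of a short island, and 6685 (19.7%) within 10 kb of a longer one. Of 44 imprinted genes 1 was near a short island, Gnas, which encodes the stimulatory G protein. Its start was covered by an island of 1800 bp with 8.25-fold H3K9me3 (24 tags) and no Setdb1 site. The study names Gnas among the genes with Setdb1 and H3K9me3 that rose on Setdb1 knockdown. Sites elsewhere at Gnas were not part of this count, nor was the Gm11607 island in the imprinted Gpr1-Zdbf2 domain. Near a longer island were 34 of the 44 imprinted genes (77.3%). Longer islands numbered 22508 and held 177 Mb, against 760 and 1.13 Mb, so more genes can lie near a longer island. The part of number and length in these shares was not tested. Of 364 zinc finger genes 1 was near a short island, Zfp513, 0.134 kb from an island of 400 bp with 8.05-fold H3K9me3 (44 tags), and 42.0% were near a longer one.

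Wnt pathway genes gave 3 of 62. Besides Rspo2 these were Fzd9, a Wnt receptor, 4.90 kb from an island with 6.87-fold H3K9me3 (54 tags), and Lef1, a transcription factor at the end of the pathway, 2.59 kb from an island with 3.92-fold (49 tags). Neither had a Setdb1 site. Of 32 genes of the H3K9 methylation machinery 1 was counted, Setdb1 itself, 7.61 kb from an island of 800 bp with 5.42-fold H3K9me3 (41 tags) and no Setdb1 site. Olfactory and vomeronasal receptors gave 4 of 1416 and ribosomal protein genes 2 of 79, Rpl10a and Rpl12. The counts were 0 of 44 for myogenic and contractile genes, 0 of 40 for germline genes, 0 of 25 for protocadherins and 0 of 39 for Hox genes. A count of 0 holds for the listed genes only. The germline list did not hold Prdm9, whose start was covered by a short island with a Setdb1 site. These counts are descriptions beside the 1.11% of all gene names and carry no test. The share was above 1.11% for imprinted (2.27%), H3K9 methylation machinery (3.12%), Wnt pathway (4.84%) and ribosomal protein genes (2.53%). Each of these rests on 1 to 3 genes, and the other lists were below 1.11%.

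Over the chromosomes the share of islands that were short ran from 1.96% on chromosome 17 to 5.56% on chromosome 12. Chromosome 1 had most short islands with a site, 9 of 74 (12.2%). Chromosome 4 had 0 of 35 and chromosome X 0 of 14, which allow shares of up to 10.0% and 23.2% by the exact interval.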

How the data were processed

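Per the study's methods and the submitters' notes, reads were aligned to mm9 with Bowtie 0.12.7, only unique alignments were kept, duplicates were removed, and MACS 1.4 and SICER called regions. Each peak row deposited by the authors has a count of tags, which are unscaled reads, and a fold enrichment, the ratio to input. Its score, also deposited, is the −log10 of p multiplied by 10, and the authors give the false discovery rate in percent. The Setdb1 list begins at 4.01-fold. SICER islands have positions only, and whether input was used for them is not given in the sources used here. Starts of islands were read as counted from 0.

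Regions were compared by an overlap of at least 1 bp. Shares have exact 95% binomial intervals (Clopper-Pearson). Counts were tested with Fisher's exact test and medians with an exact median test, which is Fisher's test on counts above the common median. The 4 comparisons with against without a site were adjusted together by the Benjamini-Hochberg method. Starts and gene names came from GENCODE on NCBIM37 (37252 genes), and no repeat annotation was used. An island takes the name of the nearest start, protein-coding first within 10 kb. The genes named are those of the 30 strongest sites, the 10 highest H3K9me3 folds without a site, list members and some genes the study followed, except for an island that is not reported here. Members, the 10 gene lists and these rules were chosen with earlier results of these data known. Python 3.11.15, NumPy 2.4.6, SciPy 1.17.1, pandas 2.3.3, pysam 0.24.0, Matplotlib 3.10.9 and BLAST+ 2.17.0 (e-value 1e-20) were used. The functions were tested on simulated data. The alternatives changed the overlap rule, the length limit, the strength of sites and peaks, the chromosomes and the distances.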

Additional observations from a re-analysis of the deposited data

How the results depend on the processing

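Of 15 alternatives for the odds ratio of short against longer islands, 13 kept its direction and its side of the threshold. Those fixed with the design ran from 1.98 to 3.74, and leaving out islands of 600 bp or less, added after seeing the data, gave 2.81. The exceptions were the upper classes of H3K9me3 fold enrichment, also added after seeing the data, with 1.58 between 7.56 and 8.93 and 0.572 above 8.93. The cause was not tested. The share with a site was 2.76% with sites of 8-fold or more, by fewer sites, where the odds ratio was 2.09, and 9.88% with a limit of 1600 bp. The ratio of sites per Mb was 21.9 with that limit, 9.98 for islands 5 kb or more from the next, and 3.86 against islands of 2000 to below 4000 bp. H3K9me3 peaks of p below 1e-05 lay over 93.4% of short islands.

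With sites of 8-fold or more, the log2 difference of median H3K9me3 fold was 0.22 (15 of 20 against 326 of 731 above the median, exact p = 0.0105), and the CpG-rich odds ratio was 2.00 (1 of 21 against 18 of 739, exact p = 0.417). The difference in tags kept its direction and passed in 7 of 7 alternatives, from 0.18 to 0.41. The odds ratio for starts stayed between 1.31 and 2.33 and passed in 0 of 7, with exact p from 0.0523 to 0.460. Genes near a short island numbered 216 within 5 kb and 1501 within 50 kb.

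No paired analysis was possible because the labels give 1 library per group. The depth of that library is unknown, and 1 Setdb1 list of 1191 sites stands for the enzyme, so with 58 sites in the class counting error limits each share.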

Other observations

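Of the 19 CpG-rich short islands 18 lacked a Setdb1 site, Gm11607 being the exception, beside 702 of all 760 short islands. Some of the 19 lay near starts of widely studied genes. The examples here were chosen after their values were seen and carry no test. Id1, which blocks the binding of myogenic factors to DNA, had an island of 1000 bp 0.214 kb from its start, with 4.87-fold H3K9me3 (55 tags). Atf4, a transcription factor of the stress response, had one 0.070 kb away with 6.32-fold (57 tags). Actb, the cytoplasmic actin of all cells, had its start covered by an island of 1800 bp with 7.56-fold and 25 tags. Foxa1 and Lhx1, transcription factors of other tissues, lay 2.51 and 2.21 kb from islands with 6.87-fold (14 tags) and 6.67-fold (27 tags). No peak of the Foxa1 island had more than 16 tags, the lowest such value among the 751 short islands with a peak.

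The 9 short islands without an H3K9me3 MACS peak were named for SNORA17, Pisd-ps1, Gadd45g, Lifr, Lima1, Filip1l, Gm3443, Samd9l and Satl1. The Gadd45g island, 0.088 kb from the start of this growth arrest gene, and the Filip1l island were CpG-rich.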
